A study of Mus musculus with 77 samples.

Results

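Polycomb repressive complex 1 (PRC1) places a single ubiquitin on histone H2A, and the genes for 10 of its core subunits were examined for the chromatin marks over their own loci in mouse B cells. The 10 genes were Ring1 and Rnf2, Bmi1, Pcgf1, Pcgf2, Pcgf3, Pcgf5 and Pcgf6, and Kdm2b and Rybp. They were chosen by name, not by their values, though with earlier results of these data known, out of 34328 protein-coding and long non-coding genes. Each was measured over its RefSeq body with 2 kb on either side. The values are peaks called in each CUT&RUN library, so they describe the histone marks on these genes and not the amount of RNA or protein made from them. All 10 had a peak of at least 1 mark in at least 1 library. On mm10 the catalytic genes lie at chr17:34020792-34024680 (Ring1) and chr1:151469398-151500991 (Rnf2), and the targeting and variant subunits at chr5:122870664-122989270 (Kdm2b) and chr6:100228565-100287358 (Rybp). The PCGF genes lie at chr2:18677018-18686629 (Bmi1), chr6:83077552-83080855 (Pcgf1), chr11:97688821-97702434 (Pcgf2), chr5:108461259-108506976 (Pcgf3), chr19:36348329-36460970 (Pcgf5) and chr19:47033617-47050939 (Pcgf6). The windows ran from 7.30 kb for Pcgf1 to 123 kb for Kdm2b.

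Every PRC1 complex holds a catalytic RING protein, RING1 or RNF2 (also called RING1B), bound to a single PCGF protein. Canonical complexes are built on BMI1 or PCGF2 and also carry CBX proteins, which read the H3K27me3 that PRC2 places, whereas variant complexes carry RYBP or its relative YAF2 and can be built on any PCGF. KDM2B brings the PCGF1 complex to unmethylated CG-rich DNA, and in mouse embryonic stem cells the PCGF3 and PCGF5 complexes are drawn to the inactive X chromosome through Xist, the long non-coding RNA that starts X inactivation. In B cells, BMI1 is best known for holding the Cdkn2a locus silent and for its part in Myc-driven lymphoma.

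CUT&RUN cuts out the DNA around an antibody-bound mark inside permeable cells. Here it was done on CD23+ B cells from spleens of female mice, for H3K27me3, for H2AK119Ub (the product of PRC1) and for H3K27ac, found at active promoters and at enhancers in use. Xist was removed in 2 systems. In the mb1-cre system, Xist fl/fl ; mb1-cre+ mice, whose Cre acts in the B lineage in vivo, were set against WT mice that also carried mb1-cre, and CpG oligonucleotide (1 µM) was given in culture for 24 h. In the TAT-Cre system, cells from Xist fl/fl or WT mice received cell-permeable TAT-Cre protein (80 µg for 45 min) before the same 24 h of culture with CpG. Its 0 h cells had not yet met Cre, so the 0 h comparison of genotypes is a baseline, and the effects of CpG and of TAT-Cre on its 24 h cells cannot be told apart. With 3 marks, both systems, both genotypes and 2 times there were 24 groups and 77 libraries. Each group had 3 libraries, but H3K27me3 had more in mb1-cre, with 4 Xist fl/fl libraries at 24 h, 5 Xist fl/fl at 0 h, 4 WT at 24 h and 4 WT at 0 h.

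Depth of sequencing is unknown, and the length of the peak lists varied widely. The H3K27me3 lists held between 1950 and 18954 peaks, the H2AK119Ub lists between 1999 and 40486, and those of H3K27ac between 1329 and 10304. In H3K27ac, lists were longer at 24 h in each system and genotype except TAT-Cre Xist fl/fl, where replicate 2 at 0 h stood apart with 10304 peaks against 1501 in each of the other 2. In H2AK119Ub, 4 lists of 0 h cells held under 3000 peaks: mb1-cre Xist fl/fl replicate 3, mb1-cre WT replicates 1 and 3 and TAT-Cre WT replicate 1. All 8 B cell marker genes had an H3K27ac peak in every library and 0 had an H3K27me3 peak, and the 8 silent Polycomb target genes showed the reverse. H3K27ac peaks lay on 0 to 2 of 6 T cell, 0 to 1 of 5 myeloid, 0 to 1 of 4 NK cell and 0 of 3 erythroid markers per library, and on 1 to 2 of 3 plasma cell markers at 24 h, against 0 to 1 at 0 h. In such bulk libraries, a mark on fewer cells and less of it per cell cannot be told apart.

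The genes split by mark. H2AK119Ub reached all 10 genes: Bmi1, Pcgf1 and Pcgf2 had a peak in all 24 libraries, Rybp in 23, Pcgf3 and Pcgf5 in 20, Kdm2b in 19, Rnf2 in 17, and Ring1 and Pcgf6 in 12. H3K27me3 was found on Pcgf1 in 26 of 29 libraries, on Pcgf3 and Rybp in 25, on Bmi1 in 23 and on Pcgf2 in 22, on Pcgf6 in 1, and on Ring1, Rnf2, Pcgf5 and Kdm2b in 0. H3K27ac was found on Pcgf2 and Kdm2b in 21 of 24 libraries, on Ring1 in 14, Pcgf5 in 12, Rnf2 in 7, Bmi1 in 2, Pcgf3 and Rybp in 1 each, and on Pcgf1 and Pcgf6 in 0. Peaks in over 50% of the libraries were thus on 5 of 10 genes for H3K27me3, on 8 for H2AK119Ub and on 3 for H3K27ac, beside 22.4%, 37.7% and 17.1% of all coding genes. Pcgf2 was alone among the 10 in having peaks of all 3 marks over its window in over 50% of the libraries of each. Of its 23 H3K27ac peaks, however, 21 had their maximum in Mllt6 and 0 in Pcgf2 itself.

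**Figure D1:**
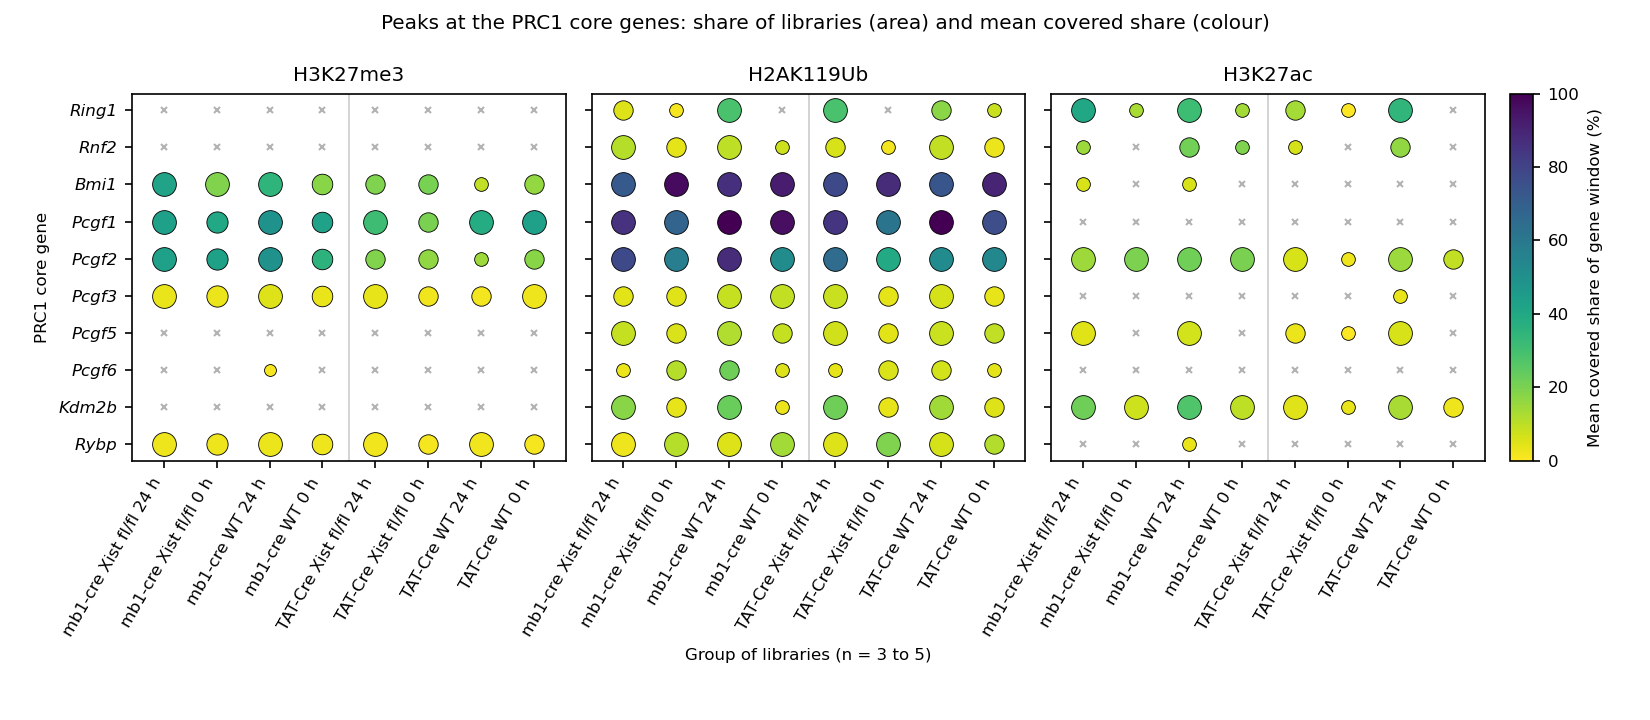
Each of the 10 genes (rows) in each mark and group (columns: system, genotype and time). The area of a circle is the share of the group's libraries with a peak, its colour the mean covered share of the gene window in percent, and a cross stands for a group with 0 peaks. H2AK119Ub peaks are on all 10 genes, H3K27me3 peaks on 6 and H3K27ac peaks on 8, and Ring1, Rnf2, Pcgf5 and Kdm2b have 0 H3K27me3 peaks in 29 libraries.

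Levels were compared between genes as signal per length, the peak signal over a gene as a share in ppm of all autosomal peak signal of its list, divided by the window in kb. By the median over the 24 H2AK119Ub libraries, Bmi1 had 11.9 ppm per kb, Pcgf1 11.3 and Pcgf2 7.38, and the other 7 genes lay between 0.211 and 0.569. The ranges over libraries of neighbours in that order overlapped, Bmi1 and Pcgf1 included. The order of these 2 genes turned with time, since Pcgf1 had the higher mean in all 4 groups at 24 h and Bmi1 in all 4 groups at 0 h. In TAT-Cre WT cells, for example, Pcgf1 averaged 10.9 ± 1.23 ppm per kb at 24 h, against 15.3 ± 12.2 at 0 h (SD, n = 3 each), and Bmi1 8.19 ± 2.01 at 24 h, against 23.8 ± 14.7 at 0 h. Peaks covered a median of 85.5% of the Bmi1 window (58.1 to 100%), 94.2% of the Pcgf1 window (43.7 to 100%) and 56.4% of the Pcgf2 window (20.5 to 95.3%). Among coding genes these 3 stood at the 99.2, 99.1 and 96.5 percentile of H2AK119Ub signal per length in the median library. Kdm2b stood at 71.4, Rybp at 68.0, Pcgf5 at 64.7, Pcgf3 at 63.9 and Rnf2 at 62.3, with Ring1 at 32.1 and Pcgf6 at 30.4. In H3K27me3 the medians were at percentile 95.8 for Pcgf1, 90.2 for Bmi1, 90.1 for Pcgf2, 78.3 for Pcgf3 and 75.6 for Rybp. In H3K27ac they were at 86.4 for Pcgf2, 83.1 for Kdm2b, 75.3 for Ring1 and 34.7 for Pcgf5.

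A window can also hold a neighbour's peak, and the highest points of the peaks showed how often. Over Pcgf1, 26 of 30 H2AK119Ub peaks and 28 of 32 H3K27me3 peaks had their maximum outside any coding gene. The H2AK119Ub peaks that touched Bmi1 were long, with a median of 22.6 kb, and 20 of 45 had their maximum in Spag6, whereas 17 of 31 H3K27me3 peaks had it in Bmi1. Maxima lay inside Pcgf2 for 23 of 23 H3K27me3 and 30 of 41 H2AK119Ub peaks, but 21 of 23 H3K27ac peaks over Pcgf2 had theirs in Mllt6. Over Ring1, 10 of 12 H2AK119Ub and 12 of 14 H3K27ac peaks had their maximum in H2-Ke6, a neighbouring gene of which 648 bp reach into the Ring1 window, and only 3 of the H2AK119Ub and 0 of the H3K27ac maxima fell inside that window. Over Pcgf3, 19 of 25 H3K27me3 maxima were in Mfsd7a, and over Rybp 25 of 25 were outside any coding gene. Maxima lay in the gene itself for 12 of 12 H3K27ac peaks of Pcgf5, 61 of 69 H2AK119Ub and 30 of 50 H3K27ac peaks of Kdm2b. The same held for 8 of 8 H3K27ac peaks of Rnf2 and 24 of 47 H2AK119Ub peaks of Rybp. Only coding genes were looked up at the maxima. The Kdm2b window also holds 10710 bp of Gm33118 and 1917 bp of A930024E05Rik, both long non-coding. At 24 h, an H2AK119Ub stretch of 8186 bp, under a peak in over 50% of libraries, reached into Gm33118.

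The promoters are shown where these marks meet a start site, since Pcgf5 and Kdm2b each have several starts that carried different marks. RefSeq promoter windows (250 bases before to 50 after a start, GRCm38.p6, the mm10 build) were at hand for 13 starts of 8 of the genes; Pcgf1 and Rybp are named only. Each is printed from 5′ to 3′ on the strand of the gene, in lower case with CG dinucleotides in capitals. The first pair are the outermost start of Pcgf5, at chr19:36348079-36348378 on the plus strand, and the start 30.7 kb inside the gene, at chr19:36378817-36379116. The next pair are an outer and an inner start of Kdm2b, at chr5:122989050-122989349 and chr5:122900301-122900600 on the minus strand. The last 3 are Pcgf2 at chr11:97699599-97699898 (minus strand), Bmi1 at chr2:18676768-18677067 (plus strand) and Ring1 at chr17:34024631-34024930 (minus strand).
Pcgf5 outer start: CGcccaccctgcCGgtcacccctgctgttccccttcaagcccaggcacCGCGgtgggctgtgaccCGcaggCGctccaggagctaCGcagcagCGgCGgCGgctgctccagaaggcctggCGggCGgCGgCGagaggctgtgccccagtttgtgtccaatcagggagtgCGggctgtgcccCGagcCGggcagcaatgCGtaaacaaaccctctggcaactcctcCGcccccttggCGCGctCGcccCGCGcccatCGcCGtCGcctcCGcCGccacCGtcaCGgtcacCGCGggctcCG
Pcgf5 internal start: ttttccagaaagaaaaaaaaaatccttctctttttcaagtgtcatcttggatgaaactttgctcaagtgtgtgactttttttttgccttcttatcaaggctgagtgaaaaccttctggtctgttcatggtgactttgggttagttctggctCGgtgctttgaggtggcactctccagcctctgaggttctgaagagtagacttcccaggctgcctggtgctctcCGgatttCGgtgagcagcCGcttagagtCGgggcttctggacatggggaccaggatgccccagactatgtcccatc
Kdm2b outer start: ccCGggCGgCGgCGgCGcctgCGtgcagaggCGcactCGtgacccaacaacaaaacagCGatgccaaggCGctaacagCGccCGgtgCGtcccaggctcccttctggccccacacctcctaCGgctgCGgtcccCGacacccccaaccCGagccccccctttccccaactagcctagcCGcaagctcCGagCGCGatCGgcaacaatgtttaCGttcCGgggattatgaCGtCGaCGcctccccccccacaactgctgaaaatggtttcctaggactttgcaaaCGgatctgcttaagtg
Kdm2b inner start: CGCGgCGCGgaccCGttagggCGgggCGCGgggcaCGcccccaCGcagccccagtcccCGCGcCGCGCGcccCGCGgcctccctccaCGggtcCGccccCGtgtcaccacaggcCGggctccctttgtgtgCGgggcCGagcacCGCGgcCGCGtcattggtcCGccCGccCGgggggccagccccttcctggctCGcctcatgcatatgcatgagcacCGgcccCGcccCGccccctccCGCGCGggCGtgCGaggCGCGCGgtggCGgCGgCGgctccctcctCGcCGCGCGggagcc
Pcgf2 start: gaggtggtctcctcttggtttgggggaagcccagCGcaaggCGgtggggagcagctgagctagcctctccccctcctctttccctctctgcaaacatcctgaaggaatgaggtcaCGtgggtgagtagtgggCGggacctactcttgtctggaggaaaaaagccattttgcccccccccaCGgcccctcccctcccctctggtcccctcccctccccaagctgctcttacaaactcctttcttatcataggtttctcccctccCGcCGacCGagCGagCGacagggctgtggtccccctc
Bmi1 start: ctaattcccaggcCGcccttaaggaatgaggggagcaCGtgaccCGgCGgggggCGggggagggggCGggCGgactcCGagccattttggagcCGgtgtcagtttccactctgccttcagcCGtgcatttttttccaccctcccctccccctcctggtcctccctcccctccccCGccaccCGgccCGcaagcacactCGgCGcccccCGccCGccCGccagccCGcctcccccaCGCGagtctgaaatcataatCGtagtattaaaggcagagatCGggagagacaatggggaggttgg
Ring1 start: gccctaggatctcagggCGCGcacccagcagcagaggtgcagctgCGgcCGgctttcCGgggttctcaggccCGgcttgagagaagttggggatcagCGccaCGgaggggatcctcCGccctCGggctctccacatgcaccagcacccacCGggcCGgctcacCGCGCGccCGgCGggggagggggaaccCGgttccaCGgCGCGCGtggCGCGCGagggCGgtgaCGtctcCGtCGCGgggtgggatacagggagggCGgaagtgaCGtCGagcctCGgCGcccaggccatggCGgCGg

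These windows differed in CG content and in marks. The outer Pcgf5 window held 34 CG dinucleotides and 73.0% G+C, and the internal one 5 and 48.3%, beside medians of 7 and 53.0% over all 32619 windows. H2AK119Ub peaks lay on the outer Pcgf5 window in 12 of 12 libraries at 24 h and 7 of 12 at 0 h, and H3K27ac peaks in 0 of 12 at each time. On the internal window the H3K27ac peaks were in 10 of 12 libraries at 24 h and 0 of 12 at 0 h, and the H2AK119Ub peaks in 7 and 3. Peaks of H3K27ac in over 50% of libraries were found on 15.4% of all windows at 24 h and 6.85% at 0 h, and of H2AK119Ub on 25.2% at 24 h and 11.9% at 0 h. At the outer Kdm2b window, with 28 CG dinucleotides, H3K27ac peaks were in 10 of 12 libraries at 24 h and 9 of 12 at 0 h, and H2AK119Ub peaks in 7 at 24 h and 1 at 0 h. The inner Kdm2b window was the richer, with 49 CG dinucleotides and 81.7% G+C. It had H2AK119Ub peaks in 8 libraries at 24 h and 2 at 0 h and H3K27ac peaks in 5 at 24 h and 2 at 0 h.

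The Pcgf2 window, with 10 CG dinucleotides and 61.7% G+C, carried both repressive marks. Its H3K27me3 peaks were in 10 of 14 libraries at 24 h and 9 of 15 at 0 h, and its H2AK119Ub peaks in 9 of 12 at 24 h and 12 of 12 at 0 h. The Bmi1 window held 23 CG dinucleotides and had H2AK119Ub peaks in 3 libraries at 24 h and 7 at 0 h, with 0 H3K27me3 peaks at each time, so the H3K27me3 peaks in the Bmi1 window lay away from this start. The Ring1 window, with 37 CG dinucleotides and 74.0% G+C, had H3K27ac peaks in 9 of 12 libraries at 24 h and 2 of 12 at 0 h. The 6 motifs searched, as exact letters on both strands, are those named here. CACGTG was in the Bmi1 and Pcgf2 windows (7.20% of all windows), CGGAAG in the Ring1 window (17.0%), GCGCATG in the Pcgf3 window (3.92%), TTGGCGC in the outer Pcgf5 window (2.47%), TTCCCGC in the innermost Pcgf5 window (4.63%), and CCAAT in the outer Pcgf5 and both inner Kdm2b windows (37.6%). The inner Kdm2b windows overlap and share that match, and no other matches overlapped. A match is only a run of letters.

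Sites of the marks were also compared base by base, using the stretches under a peak in over 50% of the libraries of a mark and time. Every base of such H3K27me3 stretches also lay in an H2AK119Ub stretch at Pcgf1 (3047 bp at 24 h and 3213 bp at 0 h), Pcgf2 (6960 and 7171 bp), Pcgf3 (1944 and 1943 bp), Rybp (1491 and 1370 bp) and Bmi1 (3598 bp at 24 h and 156 bp at 0 h). Only Pcgf2 had stretches of both H3K27ac and H3K27me3, and these shared 0 bp at both times. At 24 h, H3K27ac and H2AK119Ub stretches shared 4555 bp at Kdm2b, 4093 bp at Pcgf5, 1476 bp at Pcgf2 and 1151 bp at Ring1. At 0 h only Pcgf2 had stretches of both of these marks, and they shared 0 bp. Shared bases between libraries do not show that both marks were on the same cells.

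**Figure D2:**
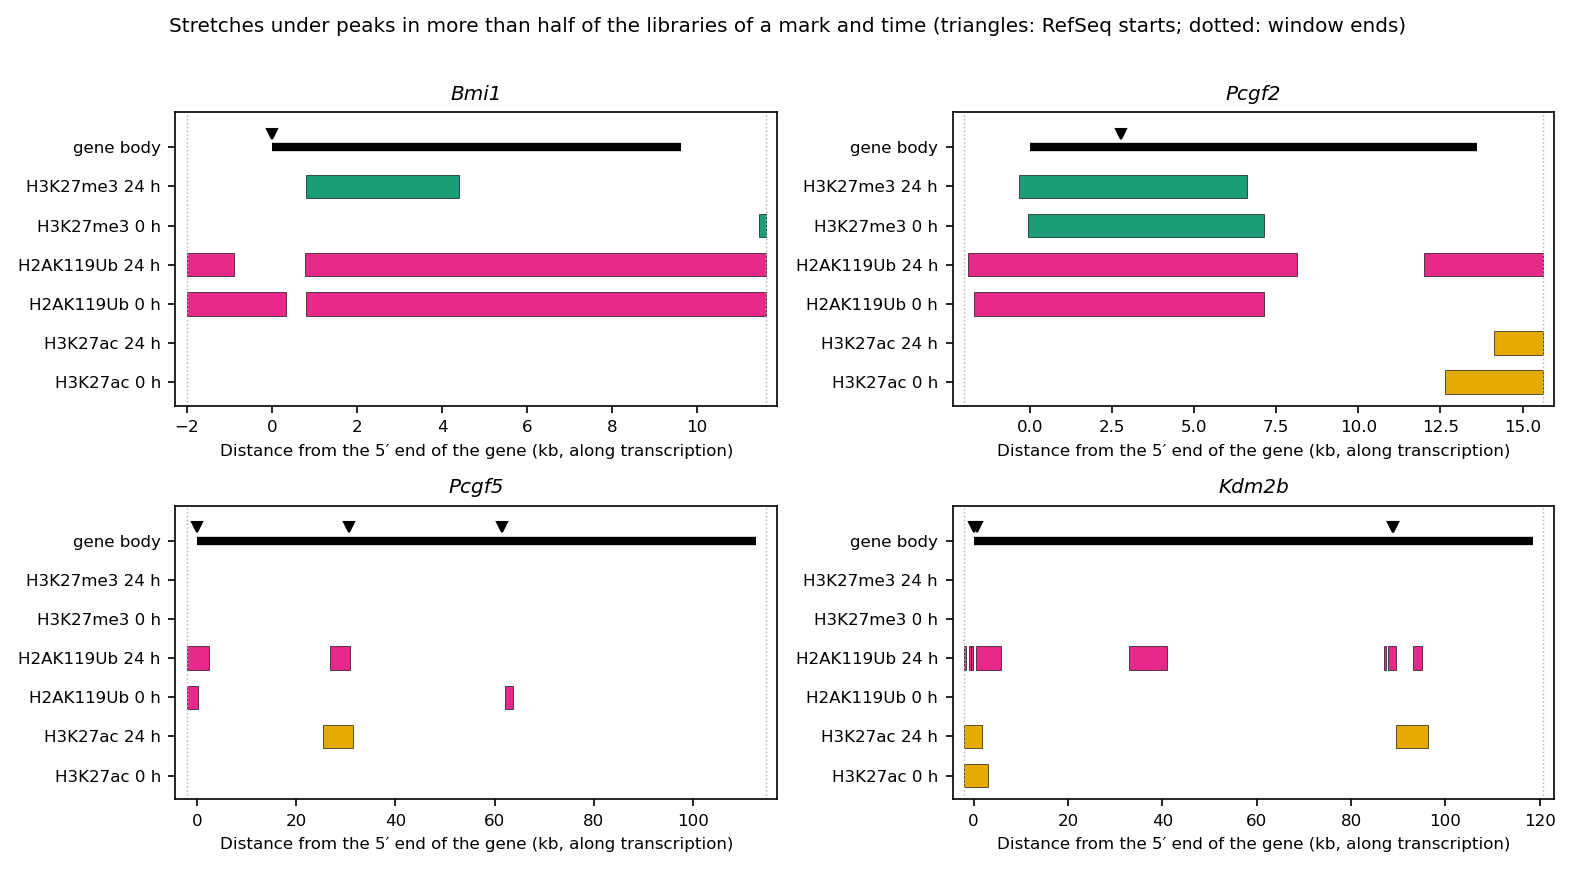
Stretches under a peak in over 50% of the libraries of a mark and time (bars) along Bmi1, Pcgf2, Pcgf5 and Kdm2b, by distance from the 5′ end of the gene (x axis, kb); black bars are gene bodies, triangles RefSeq starts and dotted lines the ends of the windows. At Pcgf5 the H3K27ac of 24 h cells lies at the start 30.7 kb inside the gene, and at Kdm2b the H2AK119Ub stretches of 24 h cells have no counterpart at 0 h.

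The first comparison was between Xist fl/fl and WT cells, pooled over mb1-cre cells at 24 h and 0 h and TAT-Cre cells at 24 h, the 3 settings in which Cre was given. None of the members tested was called in any mark (limma, Benjamini-Hochberg over all genes). That is 0 of 5 members for H3K27me3, where 0.0343% of all genes tested were called, 0 of 10 for H2AK119Ub (0.237%) and 0 of 5 for H3K27ac (0.536%), so with so low a background a count of 0 says little about these genes. For the PRC1 product H2AK119Ub, the log2 differences of signal share (Xist fl/fl minus WT, ± SE) ran from -1.02 ± 0.95 at Pcgf3 to 0.79 ± 0.94 at Kdm2b. Bmi1 (0.12 ± 0.26), Pcgf1 (-0.07 ± 0.33) and Pcgf2 (0.25 ± 0.30) were the best determined. The largest difference of H3K27ac was at Rnf2 (-2.01 ± 1.21, adjusted p = 0.620) and of H3K27me3 at Bmi1 (1.05 ± 0.97, adjusted p = 0.974). Peak presence gave 0 calls as well, among the members and among all 7789, 16824 and 6420 genes tested for H3K27me3, H2AK119Ub and H3K27ac, with an exact stratified test that had unadjusted p under 0.05 for 149, 177 and 70 genes.

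Within single settings, H2AK119Ub of Pcgf1 in mb1-cre cells at 24 h was 96.4, 99.4 and 112 ppm in Xist fl/fl libraries, against 89.4, 77.1 and 74.0 ppm in WT libraries. Bmi1 in the same libraries had 186, 149 and 145 ppm in Xist fl/fl and 141, 90.1 and 130 ppm in WT. In both genes the 3 Xist fl/fl libraries lay above the 3 WT libraries, as they did for 8.62% of all genes tested. In the TAT-Cre baseline, before any Cre, H3K27me3 of Pcgf1 was 31.8, 0 and 28.9 ppm in Xist fl/fl and 73.0, 44.1 and 49.5 ppm in WT libraries, again without overlap (1.96% of all genes were lower without overlap), with a log2 difference of -2.47 ± 1.49 and an adjusted p of 1.00 in limma.

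In the second comparison, 24 h with CpG against 0 h, the share of the PRC1 product was called different over 3 of the 10 genes in each system. H2AK119Ub was lower over the Bmi1 window and higher over those of Kdm2b and Ring1, and these calls depended on the lists and windows used, as given below. In the mb1-cre system 23.6% of all genes tested were called higher and 3.35% lower, and in the TAT-Cre system 17.9% higher and 2.67% lower, so 2 of 10 members higher is near the background. The difference in the median gene was 1.19 in mb1-cre and 1.30 in TAT-Cre on the log2 scale, and it dropped to 0.63 and 0.44 when every list was trimmed to the length of the shortest. Every 24 h library lay above every 0 h library for 17.4% of all genes tested in mb1-cre Xist fl/fl, 27.4% in mb1-cre WT, 18.6% in TAT-Cre Xist fl/fl and 23.7% in TAT-Cre WT, and below for 3.56%, 4.54%, 6.28% and 4.75%. The 2 systems share no libraries. Log2 differences here are of log2(ppm + 1), 24 h minus 0 h, averaged over Xist fl/fl and WT. The added 1 ppm shrinks differences between low values above 0. A value of 0 is an uncalled peak, and the size of a difference from it depends on the amount added. For Pcgf5 in H3K27ac in mb1-cre it was 9.41 with 0.1 ppm, 6.11 with 1 ppm and 2.97 with 10 ppm.

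Ring1, the paralog of the main ligase Rnf2, had little H2AK119Ub. In mb1-cre Xist fl/fl cells it was 4.25, 10.3 and 0 ppm at 24 h, against 3.45, 0 and 0 ppm at 0 h, and in mb1-cre WT cells 10.0, 14.4 and 14.1 ppm at 24 h, against 0, 0 and 0 ppm at 0 h. In TAT-Cre Xist fl/fl cells it was 12.6, 6.57 and 28.8 ppm at 24 h, against 0, 0 and 0 ppm at 0 h, and in TAT-Cre WT cells 8.81, 30.9 and 0 ppm at 24 h, against 0, 0 and 6.80 ppm at 0 h. Most 24 h libraries had a peak and most 0 h libraries none, but the groups overlapped in mb1-cre Xist fl/fl and TAT-Cre WT. The differences were 2.51 ± 0.88 in mb1-cre (adjusted p = 0.0366, limma) and 2.82 ± 0.88 in TAT-Cre (adjusted p = 0.0265, limma). Over the gene body alone, without the 2 kb that reach H2-Ke6, they were 0.74 (adjusted p = 0.452) and 1.26 (adjusted p = 0.186), and without the 4 lists under 3000 peaks 2.33 (adjusted p = 0.270) and 2.57 (adjusted p = 0.0871). Leaving out any of 8 mb1-cre libraries ended the mb1-cre call, with differences of 2.13 to 2.51 (adjusted p 0.0633 to 0.0940): all but Xist fl/fl 24 h replicate 3, Xist fl/fl 0 h replicate 1, WT 24 h replicate 1 and WT 0 h replicate 2. Leaving out TAT-Cre Xist fl/fl 24 h replicate 3, WT 24 h replicate 1 or 2 or WT 0 h replicate 1 or 2 ended the TAT-Cre call (2.26 to 2.68, adjusted p 0.0561 to 0.0763).

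Rnf2, which encodes the main ligase in most mouse tissues, had H2AK119Ub in 17 of 24 libraries. In mb1-cre Xist fl/fl cells it was 23.5, 24.2 and 64.2 ppm at 24 h, against 18.8, 10.4 and 0 ppm at 0 h. In mb1-cre WT cells it was 31.2, 10.0 and 32.7 ppm at 24 h, against 0, 28.8 and 0 ppm at 0 h. The groups of Xist fl/fl cells did not overlap and those of WT cells did. The differences did not pass the threshold (2.69 ± 1.14, adjusted p = 0.0822 in mb1-cre and 1.97 ± 1.14, adjusted p = 0.216 in TAT-Cre, limma). Without mb1-cre WT 0 h replicate 2 the mb1-cre difference was 3.50 (adjusted p = 0.0152), and without the 4 lists under 3000 peaks it was 0.40 (adjusted p = 0.858).

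Bmi1, a PCGF subunit of canonical PRC1, was the member whose window was called lower in H2AK119Ub share. Xist fl/fl cells of the mb1-cre system had 186, 149 and 145 ppm at 24 h, against 305, 236 and 571 ppm at 0 h. In mb1-cre WT cells it had 141, 90.1 and 130 ppm at 24 h, against 521, 160 and 495 ppm at 0 h. Both pairs were apart, with every 24 h library below every 0 h library. TAT-Cre Xist fl/fl cells had 93.0, 113 and 106 ppm at 24 h, against 271, 262 and 228 ppm at 0 h. In TAT-Cre WT cells it had 108, 85.7 and 140 ppm at 24 h, against 550, 259 and 165 ppm at 0 h. The 4 pairs of groups did not overlap, a pattern of lower values in all 4 pairs that 1.71% of all genes tested shared. The log2 difference was -1.33 ± 0.32 in both systems (adjusted p = 0.00423 in mb1-cre and 0.00519 in TAT-Cre, limma), which is 2.52 and 2.62 below the median gene. It stayed past the threshold with any single library left out (-1.60 to -1.15 in mb1-cre, -1.53 to -1.09 in TAT-Cre). At 0 h, 11 of 19 H2AK119Ub peaks over the Bmi1 window had their maximum in Spag6 and 0 in Bmi1, with a median length of 38.1 kb. At 24 h, 9 of 26 had it in Spag6 and 8 in Bmi1, with a median of 15.2 kb. The Bmi1 share thus holds part of the signal of peaks highest elsewhere, and their part in the difference was not tested.

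The 4 highest Bmi1 shares, 571, 550, 521 and 495 ppm, came from the 4 lists of under 3000 peaks. Without those lists the difference was -0.59 in mb1-cre (adjusted p = 0.101) and -1.09 in TAT-Cre (adjusted p = 5.0e-04), and with all lists trimmed to the shortest it was -1.09 (adjusted p = 0.197) and -2.44 (adjusted p = 0.00976). The percentage of the window under peaks, which is no share of a total, differed by -15.61 points in mb1-cre (adjusted p = 0.0941) and -13.30 points in TAT-Cre (adjusted p = 0.150). The Bmi1 call thus held in TAT-Cre and ended in mb1-cre with short lists left out or lists trimmed, and by covered share it ended in both.

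**Figure D3:**
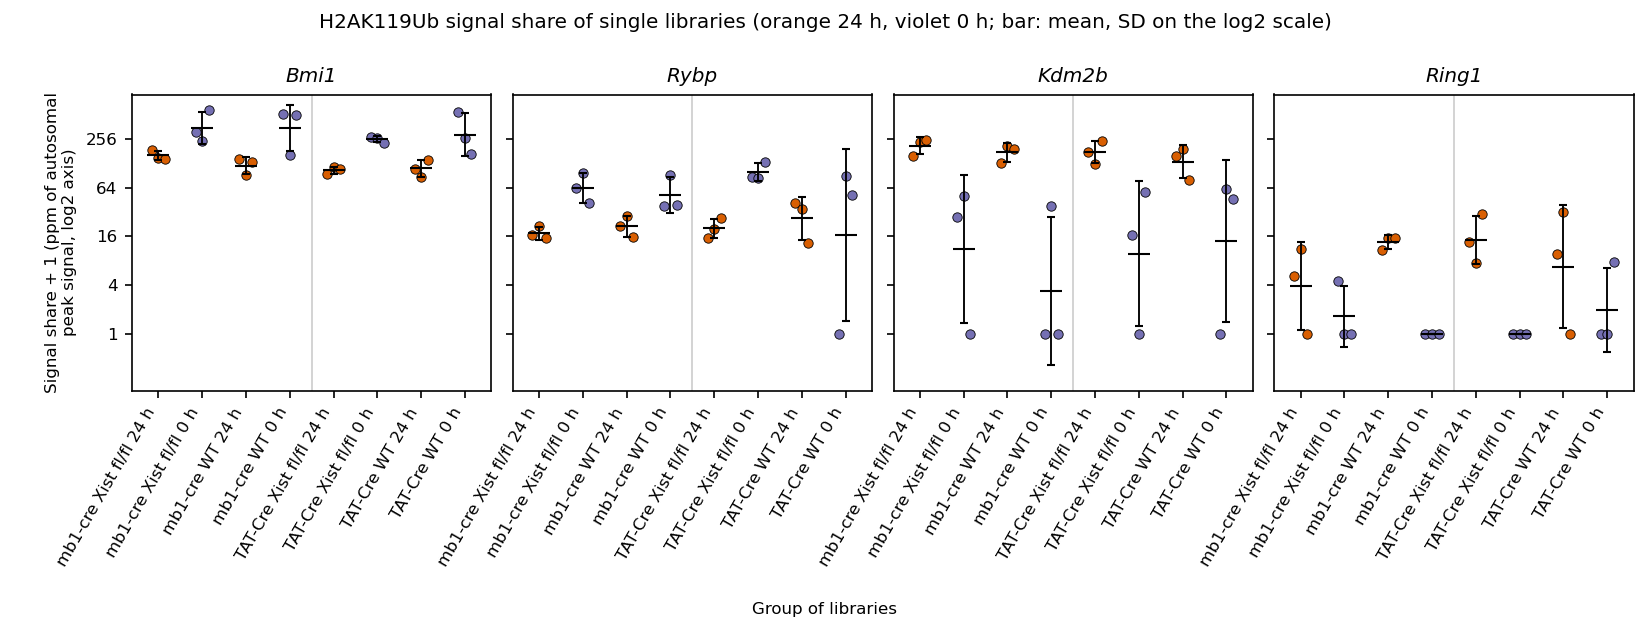
H2AK119Ub signal share + 1 (y axis, ppm of the autosomal peak signal of each list, log2 axis) of Bmi1, Rybp, Kdm2b and Ring1 in every library, by system and genotype, with 24 h (orange) left of 0 h (violet) in each pair; points are libraries, and bars are the mean ± SD on the log2 scale. Bmi1 lies between 85.7 and 186 ppm at 24 h and between 160 and 571 ppm at 0 h, and Kdm2b between 79.0 and 248 ppm at 24 h and between 0 and 60.5 ppm at 0 h.

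None of the other PCGF genes passed the test of H2AK119Ub share in the deposited lists. Pcgf1, partner of Kdm2b, had 64.7 to 112 ppm at 24 h and 57.4 to 214 ppm at 0 h, and Pcgf2, the close paralog of Bmi1, 33.9 to 213 ppm at 24 h and 87.5 to 224 ppm at 0 h. Their differences were -0.41 ± 0.40 (adjusted p = 0.494) and -0.09 ± 0.37 (adjusted p = 0.891) in mb1-cre, and -0.21 (adjusted p = 0.721) and -0.51 (adjusted p = 0.320) in TAT-Cre (limma). Pcgf3 and Pcgf5, of the variant complexes tied to Xist, differed by -0.43 ± 1.17 and 2.23 ± 1.32 in mb1-cre and by 1.52 and 1.69 in TAT-Cre, none past the threshold. Without the 4 short lists the mb1-cre difference of Pcgf5 was 0.06. Pcgf5 had 24.7 to 170 ppm at 24 h and 0 to 106 ppm at 0 h, and its peaks were in 12 of 12 libraries at 24 h and 8 of 12 at 0 h. Pcgf6, of the germline-gene repressing variant complex, had a peak in 12 libraries in all and differed by 0.21 and 0.22. With trimmed lists, Pcgf3 differed by -2.99 in mb1-cre (adjusted p = 0.00562). The direction at Pcgf2 depended on the measure. Its share differed by -2.51 in mb1-cre (adjusted p = 0.285) and -5.05 in TAT-Cre (adjusted p = 0.0500) with trimmed lists, whereas the percentage of its window under peaks was 27.91 points higher at 24 h in mb1-cre (adjusted p = 0.0358) and 12.13 points higher in TAT-Cre (adjusted p = 0.351).

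Kdm2b, which tethers the PCGF1 complex to CG islands, gained H2AK119Ub. Xist fl/fl cells of the mb1-cre system had 158, 232 and 248 ppm at 24 h, against 26.4, 49.5 and 0 ppm at 0 h. In mb1-cre WT cells it had 127, 210 and 192 ppm at 24 h, against 0, 37.0 and 0 ppm at 0 h. In these pairs every 24 h library lay above every 0 h library. TAT-Cre Xist fl/fl cells had 176, 125 and 236 ppm at 24 h, against 15.7, 0 and 54.8 ppm at 0 h. In TAT-Cre WT cells it had 156, 191 and 79.0 ppm at 24 h, against 0, 60.5 and 44.6 ppm at 0 h. All 4 pairs were apart, as 5.65% of all genes tested were in the same direction, and the differences were 4.96 ± 1.15 in mb1-cre (adjusted p = 0.00333) and 3.70 ± 1.15 in TAT-Cre (adjusted p = 0.0255, limma). Several stretches under a peak in over 50% of libraries came to 18807 bp in all at 24 h, the longest of 8186 bp. At 0 h they came to 0 bp, though 7 of 12 libraries had a peak in the window.

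The Kdm2b call held in mb1-cre with any single library left out (4.09 to 5.84). In TAT-Cre it ended without Xist fl/fl 24 h replicate 3, Xist fl/fl 0 h replicate 2, WT 24 h replicate 1 or 2 or WT 0 h replicate 1 (2.75 to 3.65, adjusted p 0.0522 to 0.0855). Without the 4 short lists the differences were 2.34 in mb1-cre (adjusted p = 0.0761) and 2.75 in TAT-Cre (adjusted p = 0.00809), and with trimmed lists 3.67 (adjusted p = 0.112) and 4.12 (adjusted p = 0.103). In the trimmed lists Kdm2b had a peak in 6 of 12 libraries at 24 h and 0 of 12 at 0 h (adjusted p = 0.0582, exact stratified test).

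Rybp, the variant subunit that itself binds ubiquitinated H2A, showed lower H2AK119Ub at 24 h by rank but not by the test of the full lists. Xist fl/fl cells of the mb1-cre system had 15.5, 20.5 and 14.1 ppm at 24 h, against 61.8, 95.7 and 40.5 ppm at 0 h, and in mb1-cre WT cells 20.4, 27.4 and 14.8 ppm at 24 h, against 37.4, 91.5 and 38.0 ppm at 0 h. TAT-Cre Xist fl/fl cells had 14.2, 18.9 and 25.6 ppm at 24 h, against 85.9, 82.5 and 132 ppm at 0 h, and in TAT-Cre WT cells 40.5, 33.6 and 12.4 ppm at 24 h, against 0, 88.5 and 50.6 ppm at 0 h. The groups were apart in 3 of 4 pairs, and the fourth overlapped through TAT-Cre WT 0 h replicate 1, a list of under 3000 peaks in which Rybp had none. The differences were -1.57 ± 0.83 in mb1-cre (adjusted p = 0.169) and -0.81 in TAT-Cre (adjusted p = 0.498, limma). Without that single library they were -1.57 (adjusted p = 0.0316) and -1.82 (adjusted p = 0.0371). In lists trimmed to the shortest, Rybp had a peak in 1 of 12 libraries at 24 h and 11 of 12 at 0 h (adjusted p = 0.00456, exact stratified test), against 12 and 11 of 12 in the lists as deposited. Of the genes in that test 28.9% were called in either direction and 11.5% lower at 24 h, and Rybp was the 1 member called of 4 tested. With deposited lists 0 members and 11.3% of all genes were called. In the trimmed lists its signal share differed by -5.68 in mb1-cre (adjusted p = 3.5e-04) and -4.24 in TAT-Cre (adjusted p = 0.00605).

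H3K27ac, which unlike the other marks goes with active genes, was called higher over the windows of Pcgf5 and Ring1 in both systems and of Kdm2b in TAT-Cre. The calls of Ring1 and Kdm2b depended on the libraries, lists or windows used, as given below. Of the 5 members tested, 2 were called higher in mb1-cre and 3 in TAT-Cre and 0 lower, where 40.0% and 22.5% of all genes tested were called higher and 6.15% and 4.62% lower. The mb1-cre count is thus at the background. The median gene differed by 1.87 in mb1-cre and 0.95 in TAT-Cre, and by 0.01 and 0.03 with trimmed lists. Of the members only Kdm2b had enough peaks in the trimmed lists to be tested, and it was not called in either system, so the calls of Pcgf5 and Ring1 were not tested there. Groups were apart, with 24 h higher, for 29.4% of all genes in mb1-cre Xist fl/fl, 27.6% in mb1-cre WT and 19.8% in TAT-Cre WT. These increases go along with longer 24 h lists, and the part of list length in them was not tested.

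Pcgf5 showed the clearest H3K27ac contrast. In mb1-cre Xist fl/fl cells it had 63.5, 74.4 and 60.9 ppm at 24 h, against 0, 0 and 0 ppm at 0 h. WT cells of the mb1-cre system had 53.0, 85.6 and 75.6 ppm at 24 h, against 0, 0 and 0 ppm at 0 h. Pcgf5 was thus listed at 0 in every mb1-cre library at 0 h (adjusted p = 9.0e-05, limma). These 0 h values have no spread, so the p rests on the spread in other groups and genes. With nearly all of its peaks at 24 h, Pcgf5 also met the filter of 3 libraries through the 24 h lists. In TAT-Cre Xist fl/fl cells it had 0, 126 and 53.1 ppm at 24 h, against 0, 43.1 and 0 ppm at 0 h. WT cells of the TAT-Cre system had 81.2, 85.6 and 75.9 ppm at 24 h, against 0, 0 and 0 ppm at 0 h. The groups overlapped in TAT-Cre Xist fl/fl alone, where the 0 h value came from the 1 long list of 10304 peaks. The TAT-Cre difference was 4.39 ± 1.02 (adjusted p = 0.00418, limma), and no single library left out ended either call. Counted as peaks, Pcgf5 had H3K27ac in 11 of 12 libraries at 24 h and 1 of 12 at 0 h in the deposited lists (adjusted p = 0.00722, exact stratified test, where 31.0% of all genes were called in either direction and 30.7% higher). All of these peaks had their maximum in the gene, with a median position of -3258 bp from the nearest start (negative is upstream), and 10 of 12 libraries at 24 h had a peak on the internal promoter window printed above, of low CG content.

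Kdm2b had H3K27ac at both times. In mb1-cre Xist fl/fl cells it had 201, 116 and 260 ppm at 24 h, against 93.0, 95.9 and 173 ppm at 0 h, and in mb1-cre WT cells 287, 302 and 181 ppm at 24 h, against 74.7, 111 and 225 ppm at 0 h. In TAT-Cre Xist fl/fl cells it had 86.8, 147 and 131 ppm at 24 h, against 0, 212 and 0 ppm at 0 h, and in TAT-Cre WT cells 236, 93.9 and 169 ppm at 24 h, against 86.9, 0 and 87.0 ppm at 0 h. Only TAT-Cre WT was without overlap. The difference was 0.84 ± 1.15 in mb1-cre (adjusted p = 0.586) and 3.65 in TAT-Cre (adjusted p = 0.0254, limma). The TAT-Cre call ended without Xist fl/fl 24 h replicate 3, Xist fl/fl 0 h replicate 1 or 3, WT 24 h replicate 1 or WT 0 h replicate 2 (2.58 to 3.62, adjusted p 0.0519 to 0.0820), and it was 0.95 (adjusted p = 0.588) with trimmed lists. Without the 10304-peak list it was 4.94 (adjusted p = 1.9e-04). By the percentage of the window under peaks the increase was called in mb1-cre (15.99 points, adjusted p = 0.00591) and not in TAT-Cre (5.99 points, adjusted p = 0.424). Bases under a peak in over 50% of libraries came to 10636 bp at 24 h and 5131 bp at 0 h, and at 24 h lay in 2 stretches, chr5:122893040-122899807 next to the inner starts and chr5:122987403-122991270 over the outer ones.

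Ring1 had H3K27ac of 35.7, 30.2 and 28.8 ppm at 24 h in Xist fl/fl cells of the mb1-cre system, against 0, 0 and 36.2 ppm at 0 h. WT cells of the mb1-cre system had 5.40, 35.6 and 38.8 ppm at 24 h, against 0, 0 and 34.6 ppm at 0 h. TAT-Cre Xist fl/fl cells had 62.4, 0 and 1.61 ppm at 24 h, against 0, 1.65 and 0 ppm at 0 h, and in TAT-Cre WT cells 28.2, 31.1 and 33.9 ppm at 24 h, against 0, 0 and 0 ppm at 0 h. The groups overlapped in every pair except TAT-Cre WT. The differences were 2.98 ± 1.11 in mb1-cre (adjusted p = 0.0344) and 3.49 in TAT-Cre (adjusted p = 0.0269, limma), and 1.88 (adjusted p = 0.108) and 2.34 (adjusted p = 0.0724) over the gene body alone. The mb1-cre call ended without any of 9 mb1-cre libraries (2.54 to 3.01, adjusted p 0.0506 to 0.0941), all but Xist fl/fl 0 h replicate 3, WT 24 h replicate 1 and WT 0 h replicate 3. The TAT-Cre call ended without Xist fl/fl 24 h replicate 1, Xist fl/fl 0 h replicate 1 or 3 or WT 0 h replicate 2 (2.61 to 3.49, adjusted p 0.0524 to 0.0717). Peaks were in 11 of 12 libraries at 24 h and 3 of 12 at 0 h (adjusted p = 0.0226, exact stratified test).

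**Figure D4:**
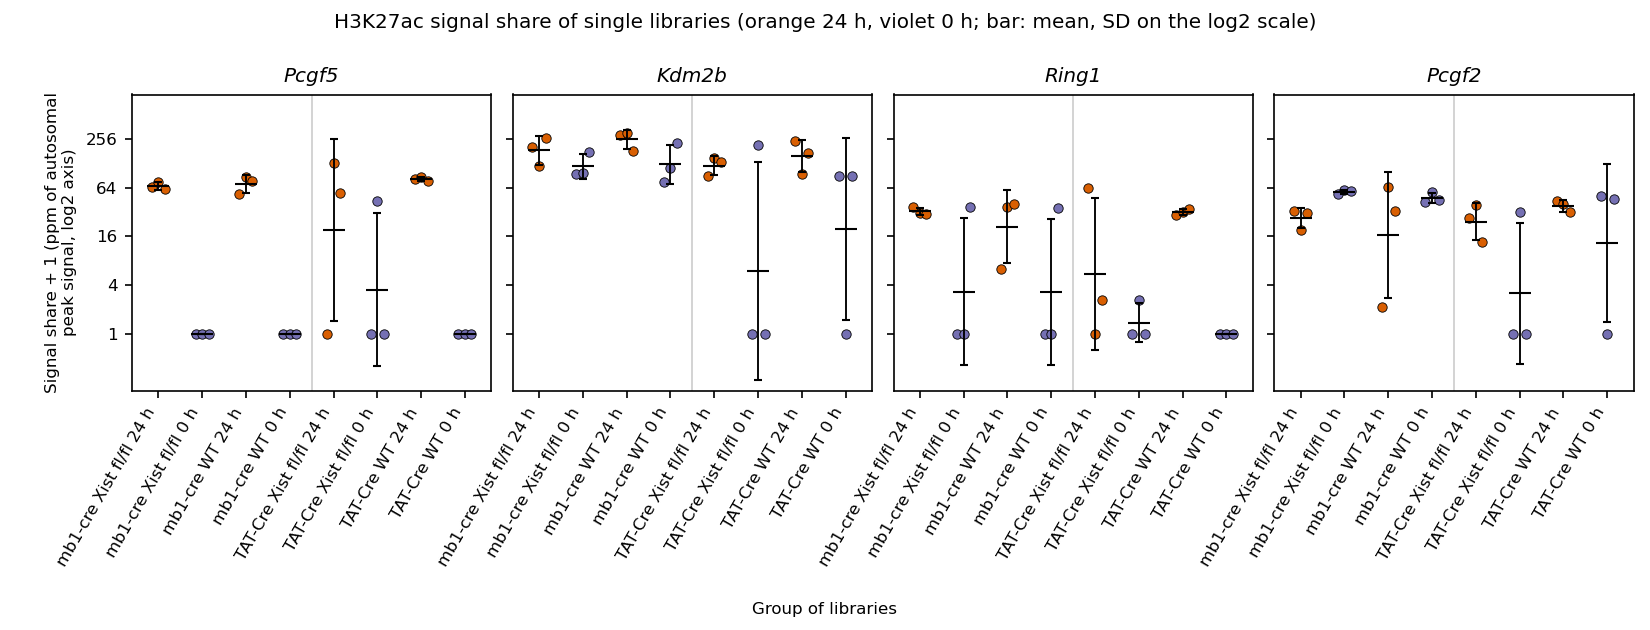
H3K27ac signal share + 1 (y axis, ppm of the autosomal peak signal of each list, log2 axis) of Pcgf5, Kdm2b, Ring1 and Pcgf2 in every library, by system and genotype, with 24 h (orange) left of 0 h (violet) in each pair; points are libraries, and bars are the mean ± SD on the log2 scale. Pcgf5 is above 50 ppm in 11 of 12 libraries at 24 h and at 0 in 11 of 12 at 0 h, whereas Pcgf2 and Kdm2b have signal at both times.

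Over Pcgf2, where nearly all H3K27ac maxima fell in Mllt6, the mark was 31.9, 18.2 and 30.1 ppm at 24 h in Xist fl/fl cells of the mb1-cre system, against 52.8, 59.2 and 56.6 ppm at 0 h. The groups were apart, as 16.1% of all genes were in that direction. In mb1-cre WT cells it was 1.15, 63.9 and 31.9 ppm at 24 h, against 42.0, 55.4 and 43.5 ppm at 0 h, with overlap. The difference was -1.30 ± 1.06 in mb1-cre (adjusted p = 0.339) and 2.22 in TAT-Cre (adjusted p = 0.134, limma), and 3.06 in TAT-Cre without the 10304-peak list (adjusted p = 0.0160). Over the gene body alone the mb1-cre difference was -2.52 (adjusted p = 0.0192). Rnf2 had H3K27ac in 6 of 12 libraries at 24 h and 1 of 12 at 0 h. Its mb1-cre difference was 1.83 ± 1.48 (adjusted p = 0.333), and in TAT-Cre it was 0, 0 and 50.3 ppm in Xist fl/fl and 57.8, 0 and 52.6 ppm in WT libraries at 24 h and listed at 0 in all libraries at 0 h (adjusted p = 0.165, limma).

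H3K27me3, the mark of PRC2, was not called different between 24 h and 0 h at any of the 5 members tested. The differences ran from 0.41 to 1.46 in mb1-cre (lowest adjusted p 0.320), where 30.9% of all genes were called in either direction and the median gene differed by 1.09, and from -0.54 to 2.10 in TAT-Cre (lowest adjusted p 0.349), where 0.0857% were called in either direction. Peak presence in trimmed lists called 0 of the 4 members tested for H3K27me3 (1.28% of all genes called), and for H3K27ac it did not call Kdm2b, the 1 member tested (28.4%). Pcgf1 in mb1-cre Xist fl/fl cells had 54.1, 39.0, 46.8 and 68.7 ppm at 24 h, against 0, 65.5, 63.7, 68.2 and 51.6 ppm at 0 h. Pcgf2 in the same cells had 65.2, 59.2, 55.8 and 41.8 ppm at 24 h, against 0, 96.0, 89.5, 70.7 and 58.2 ppm at 0 h. In both genes the library at 0 was replicate 1 at 0 h, the shortest H3K27me3 list (1950 peaks), and the groups overlapped. Bmi1 in these cells had 40.2, 45.7, 45.3 and 83.7 ppm at 24 h, against 20.0, 3.89, 12.8, 100 and 44.8 ppm at 0 h, again with overlap. Pcgf3 had 8.46 to 17.1 ppm at 24 h, against 0 to 26.9 ppm at 0 h, and Rybp 7.19 to 12.5 ppm, against 0 to 21.0 ppm.

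In the TAT-Cre system H3K27me3 of Rybp was 20.5, 25.7 and 21.3 ppm in Xist fl/fl cells at 24 h, against 13.0, 0 and 11.3 ppm at 0 h. Its WT groups were also apart, with a lowest value of 21.7 ppm at 24 h and a highest of 16.6 ppm at 0 h. Pcgf3 had 23.7, 37.7 and 33.5 ppm in TAT-Cre Xist fl/fl at 24 h, against 11.7, 0 and 20.4 ppm at 0 h. Pcgf1 had 39.5, 67.6 and 34.4 ppm there, against 31.8, 0 and 28.9 ppm. These 3 members were higher without overlap in Xist fl/fl, as were 6.39% of all genes, and Rybp in WT, as were 10.0%. None passed the threshold.

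**Figure D5:**
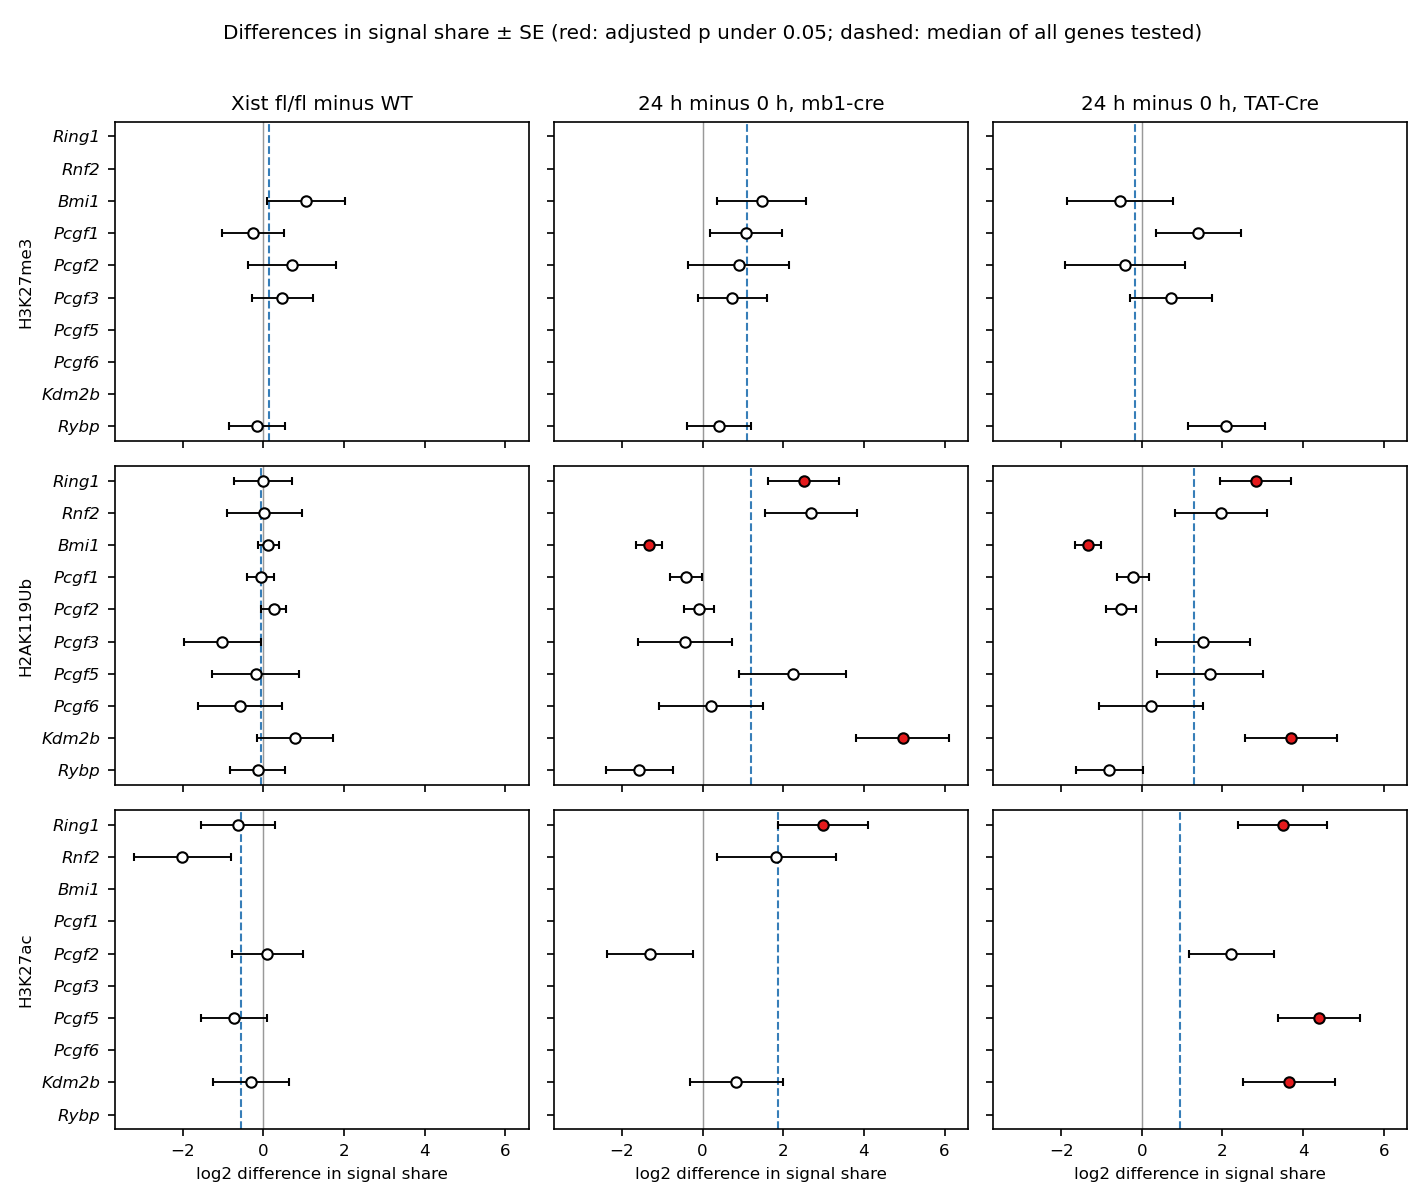
Log2 difference in signal share (x axis, log2 of ppm + 1; points with bars of 1 SE) of each tested member, for Xist fl/fl minus WT and for 24 h minus 0 h in each system, by mark; red points passed an adjusted p of 0.05, dashed lines are the median of all genes tested, and members whose 0 h libraries were all listed at 0 are left out. For 24 h minus 0 h in H2AK119Ub, Bmi1 is at -1.33 in both systems and Kdm2b at 4.96 in mb1-cre and 3.70 in TAT-Cre, while no point for Xist fl/fl minus WT passed.

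Whether the response to stimulation differed between genotypes or systems was tested as an interaction. Of 60 such tests of members, 0 were called (lowest adjusted p 0.171, for Pcgf2 in H3K27ac between systems, with a difference of 3.52 ± 1.51), and 1 had an unadjusted p under 0.05. The opposite signs of Pcgf2 H3K27ac in the 2 systems were therefore not shown to differ.

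Among 20 genes for other PRC1 subunits and partners, H2AK119Ub rose at 5 and fell at 1 in mb1-cre, and rose at 1 and fell at 1 in TAT-Cre. The backgrounds were again 23.6% higher and 3.35% lower, and 17.9% and 2.67%, and the medians of the list were 0.61 and 0.71, beside 1.19 and 1.30 for all genes. Phc2, a polyhomeotic subunit of canonical PRC1, rose in both systems (4.37 ± 1.18 in mb1-cre, adjusted p = 0.00921), and Cbx8, a reader of H3K27me3, fell in both. H3K27ac, called higher at 40.0% of all genes in mb1-cre and 22.5% in TAT-Cre, rose at Phc3 and Fbrsl1 in mb1-cre and at 3 of 10 tested in TAT-Cre (Phc3, Fbrs and Max), with Max, the DNA-binding subunit of the PCGF6 complex, at 4.05 ± 1.10 (adjusted p = 0.0121, limma). Phc3 was listed at 0 in mb1-cre at 0 h (adjusted p = 6.6e-06, limma), again without spread at that time. H3K27me3 rose at 1 of 11 in mb1-cre, Fbrsl1 (2.95 ± 0.74, adjusted p = 0.00439, limma), and 0 in TAT-Cre, beside 30.9% and 0.0857% of all genes called in either direction. Of 5 genes for removal of the H2A ubiquitin, H3K27ac rose at 3 in each system (40.0% and 22.5% of all genes), including Bap1, the catalytic deubiquitinase, in both, and its cofactors Asxl1 (4.30 ± 1.04, adjusted p = 0.00555) and Asxl2 (5.43 ± 1.11, adjusted p = 0.00160) in TAT-Cre. Of 11 PRC2 genes, 10 were tested for H3K27ac, and it rose at 6 in mb1-cre and 3 in TAT-Cre, beside the same backgrounds of 40.0% and 22.5%, among them the methyltransferase Ezh2 (5.30 ± 1.47, adjusted p = 0.0136) and its cofactor Aebp2 (6.05 ± 1.12, adjusted p = 7.4e-04) in TAT-Cre (limma). In these 3 lists 0 genes were called between Xist fl/fl and WT in any mark.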

How the data were processed

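The deposited files are peak lists, 1 per library, in 6 columns without a header, holding each peak's position on mm10, its total signal and its highest signal. Peaks were called with SEACR on normalized data in relaxed mode, per the labels of the deposited lists. Per the submitters' processing notes, Trimmomatic 0.32, Bowtie2 2.3.4.1, Picard and deepTools 3.5.1 were used. The SEACR version, its control, the use of the yeast spike-in and the read depth are not given here by any source, so no counting interval can be given and only the length of the lists shows how much was called. Antibody amounts were 1.5 µg (H2AK119Ub) and 3 µg (H3K27me3, H3K27ac), per the labels' protocols.

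The deposited lists held 883735 peaks in all. Those on the 19 autosomes and the X chromosome were joined to 34328 RefSeq genes of GRCm38.p6 (21631 protein-coding, 12697 long non-coding). Each gene was taken with 2 kb on either side. A gene had a peak where at least 1 bp overlapped. Its signal share is the peak signal in the window, in ppm of the list's autosomal peak signal. The total signal of a peak was spread evenly over its length, and the part inside the window was counted. Tests took the genes that had peaks in 3 or more libraries of a mark: 5 members for H3K27me3, 10 for H2AK119Ub and 5 for H3K27ac. Log2(ppm + 1) was fitted over all libraries of a mark with 1 mean per group in limma 3.58.1 (R 4.3.3, empirical Bayes with trend), and p-values were Benjamini-Hochberg adjusted over all genes, with a threshold of 0.05. Peak presence was tested with an exact two-sided conditional test stratified by system and time, or by system and genotype, in Python 3.11.15 (numpy 2.4.6, scipy 1.17.1, pandas 2.3.3). For genotype the deposited lists were used, and for 24 h against 0 h each list was trimmed by total signal to the shortest of its mark (1950, 1999 and 1329 peaks for H3K27me3, H2AK119Ub and H3K27ac). The scripts were tested on simulated data.

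The members and gene lists were chosen with earlier results of these data known. All 10 members are named, with up to 4 genes of smallest p from each of 3 lists of related genes and, for each member, the coding gene nearest to it in covered share. The labels call the replicates biological but do not say whether they came from separate mice, and p-values measure the spread between these libraries. For 1 library (H3K27me3, mb1-cre Xist fl/fl 0 h replicate 5) the title says naive but the treatment label says stimulated. The title was followed, and the library was placed at 24 h in an alternative. Alternatives were other pseudocounts (0.1 and 10 ppm), no filter, an overlap of 500 bp, the gene body alone, the upper 50% of each list, trimmed lists, covered share, a replicate block and leaving out each library. Leaving out the 4 short H2AK119Ub lists and the long H3K27ac list was chosen after seeing the data. Protein sequences were not used here. The result of 1 gene of the PRC1 partner list is not reported here.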

Additional observations from a re-analysis of the deposited data

Results flagged for a closer look

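In the 4 H3K27me3 groups of 4 or 5 libraries (mb1-cre), 21 sets of covered shares (the percentage of a member's window under peaks) could be screened for a library far from the others, and 8 were picked out. Chance alone would pick about 1 in 20 of independent, normally spread sets. These sets hold zeros and share libraries, so that rate does not apply and no excess is read from the count. Of these, 5 belong to 2 libraries with short lists. In Xist fl/fl 0 h replicate 1, with 1950 peaks, Pcgf1 was covered to 0%, against 44.5 to 57.9% in the other libraries of its group, Pcgf2 to 0%, against 48.3 to 64.4%, and Rybp to 0%, against 2.90 to 3.72%. In WT 0 h replicate 2, with 2704 peaks, Pcgf1 was covered to 0%, against 52.4 to 60.7% in the others, and Pcgf2 to 0%, against 44.3 to 51.4%. The part of list length in these zeros was not tested. Bmi1 was covered to 58.4% in WT 0 h replicate 4, where the next library had 7.74%. Pcgf3 was covered to 1.93% in Xist fl/fl 24 h replicate 2, against 3.91 to 3.98% in the others. Pcgf6 was covered to 5.39% in WT 24 h replicate 4 and to 0% in the other 3, and this is the 1 library in which Pcgf6 had an H3K27me3 peak.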

How the results depend on the processing

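For 15 results (the number of members called, by mark and comparison), 445 of 481 alternatives stayed within 1.5 times the main count and 36 did not. This compares counts only, not which members were called, so it does not show that the same calls held. With trimmed lists, the H2AK119Ub calls of Bmi1 and Kdm2b in mb1-cre ended, while Pcgf3 and Rybp were called instead. In 10 of the results 0 members were called, and the comparison of Xist fl/fl with WT had 0 members called in each of its 180 alternatives. Trimmed lists gave 0 members for H3K27ac between 24 h and 0 h in both systems (main 2 in mb1-cre and 3 in TAT-Cre), but only Kdm2b was left to test there, and Pcgf5 and Ring1 were not tested. Keeping the upper 50% of peaks by highest signal gave 1 for H3K27me3 in mb1-cre (Rybp, 3.28, adjusted p = 0.00427) and 0 for H3K27ac in TAT-Cre. Covered share gave 1 in TAT-Cre for H2AK119Ub (Kdm2b) and 1 for H3K27ac (Pcgf5), a pseudocount of 10 ppm gave 1 for H3K27ac in mb1-cre (Pcgf5), and leaving out the short lists gave 1 for H2AK119Ub in mb1-cre (Rybp). For presence between 24 h and 0 h, H2AK119Ub (main 1) gave 0 with deposited lists and 0 over gene bodies, and H3K27ac (main 0) gave 2 with deposited lists and 2 with the upper 50% (Ring1 and Pcgf5). The H2AK119Ub presence difference of Rybp (fraction of libraries, 24 h minus 0 h) reversed to 0.167 with the upper 50% (adjusted p = 0.830); the cause was not tested. With single libraries left out, the 24 h against 0 h counts were 2 to 4 in mb1-cre and 1 to 3 in TAT-Cre for H2AK119Ub, 1 to 2 and 1 to 4 for H3K27ac, and 1 to 3 for H2AK119Ub presence, where a group left with fewer libraries is assumed to vary like the others. That presence test added Kdm2b (adjusted p 0.0183 to 0.0281) without any of 6 libraries of 24 h (mb1-cre Xist fl/fl 1 or 2, mb1-cre WT 2, TAT-Cre Xist fl/fl 1 or 2, TAT-Cre WT 3) and Pcgf2 (0.0182 to 0.0283) without any of 6 (mb1-cre Xist fl/fl 2 or 3, mb1-cre WT 2 or 3, TAT-Cre Xist fl/fl 2, TAT-Cre WT 2). Replicate numbers did not pair the libraries: of 76 same-numbered pairs, 11 had deviations correlated over 0.1 (median -0.0206, -0.356 to 0.483), and 25 correlated best with their own number. A replicate block ended the call of Kdm2b in H3K27ac in TAT-Cre (adjusted p = 0.0556), which left 2 members, moved the count over all genes between genotypes to 19 for H2AK119Ub and 8 for H3K27ac (49 and 52 without it) and changed no other member's call. List length limits all of these values, since depth is unknown.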

Other observations

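The coding gene most like each member was found by the mean absolute difference of the covered share over 24 group means, as a description. Pcgf3 had the closest, Tanc1, at 0.725 percentage points, followed by Rpusd4 for Pcgf6 at 0.890, Adtrp for Pcgf5 at 1.05, Lnpk for Rybp at 1.25, Panx1 for Rnf2 at 1.75, Anxa6 for Kdm2b at 2.05 and Tcirg1 for Ring1 at 3.02. The 3 members with most H2AK119Ub per length had the farthest nearest genes: Dbn1 for Pcgf1 at 6.10, Socs2 for Bmi1 at 6.31 and Vps25 for Pcgf2 at 7.88 percentage points. Genes with little coverage differ little from many others, so these distances follow the level of coverage.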
